A study of Mus musculus with 60 samples.

Results

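The histone genes described here are the replication-dependent core histone genes and the linker histone genes of the mouse. They were followed by every probe set whose annotated gene symbols all begin with Hist1h, Hist2h, Hist3h, Hist4h, H1f, H2ac, H2bc, H3c or H4c. The rule gave 47 of the 35556 probe sets on the array. By histone type these were 8 probe sets for linker histone H1, 4 for H2A, 9 for H2B, 13 for H3 and 12 for H4, and 1 mixed probe set annotated with both an H2B and an H1 gene. Of the 47, 30 carried 1 gene symbol and are named by it. The other 17 carried several symbols and are named by their probe set number: 10 H3 probe sets each annotated with 12 H3 symbols, 5 H4 probe sets each annotated with 11 H4 symbols, 1 H4 probe set with 2 symbols, and the mixed probe set with 2. A signal on such a probe set cannot be assigned to 1 gene.

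Histones H2A, H2B, H3 and H4 form the protein core around which DNA is wound, and the linker histone H1 binds the DNA between cores. Cells make most of their histones while DNA is copied in S phase, from clustered replication-dependent genes whose mRNAs end in a stem loop bound by Slbp and, unlike other mRNAs, carry no poly(A) tail. When DNA synthesis stops these mRNAs are degraded. Replication-independent variants and some linker histones are made from ordinary polyadenylated mRNAs throughout the cycle.

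Cells of R1, an established mouse embryonic stem cell line cultured on feeder cells and then separated from them, were exposed for 6 h while undifferentiated, and total RNA was hybridised to 60 Affymetrix mouse gene arrays. There were 3 arrays in each of 20 groups, all in 0.1% DMSO. The compounds labelled as teratogens were penicillamine at 1 mM, thalidomide at 0.35 mM, azacytidine at 0.23 µM in the sample titles but 23 µM in another label, retinoic acid at 0.024 mM, dexamethasone at 0.1 mM, dimethadione at 1 mM, fluconazole at 1 mM, topiramate at 1 mM, methotrexate at 0.028 µM and VPA, valproic acid, at 1 mM. Those labelled as non-teratogens were chlorthalidone at 1 mM, clozapine at 0.028 mM, glybenclamide at 0.37 mM, hydrochlorothiazide at 1 mM, loratadine at 0.043 mM, metoclopramide at 0.17 mM, ondansetron at 0.054 mM, paracetamol at 1 mM and sulfasalazine at 1 mM. The remaining group was the solvent alone, DMSO, against which every compound was compared. Doses differed, so differences between compounds are differences between these exposures. The labels do not say whether the 3 arrays of a group came from separate cultures, so p-values measure a spread between arrays. That spread was estimated over all 60 arrays in 1 model and is not that of the compared groups alone.

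Values are log2 signals, so a difference of 1 is a doubling. A probe set is said to have risen, fallen or been called when its adjusted p was under 0.05 in limma fitted across all probe sets, and the standard error of each difference is given as ±. Array medians ran between 7.58 and 7.79. The embryonic stem cell markers Nanog and Sox2 had mean signals of 12.63 and 12.41 on the DMSO arrays, and the summed signal of 8 such markers was 15.43 to 15.45 there, beside 13.40 to 13.47 for 10 fibroblast markers. No signal on this scale is 0, so absence of a marker cannot be read from it. Because the RNA is from whole cultures, fewer cells in a phase that makes histone mRNA and less histone mRNA per cell cannot be told apart.

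With paracetamol, an analgesic, 37 of the 47 histone probe sets fell and 0 rose, against 5.43% of all probe sets called and 2.79% called lower in that comparison. The median histone difference was a log2 difference of -0.29, and that of all probe sets was 0.00 to 2 decimals (-0.0028). With VPA, an antiepileptic drug known to inhibit histone deacetylases, 5 rose and 2 fell, where 18.3% of all probe sets were called and 9.82% were called higher. H2ac1, H2bc1 and H1f10 had the largest of those rises. With dexamethasone, a synthetic glucocorticoid, 9 fell, where 4.06% of all probe sets were called and 3.01% were called lower.

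**Figure D1:**
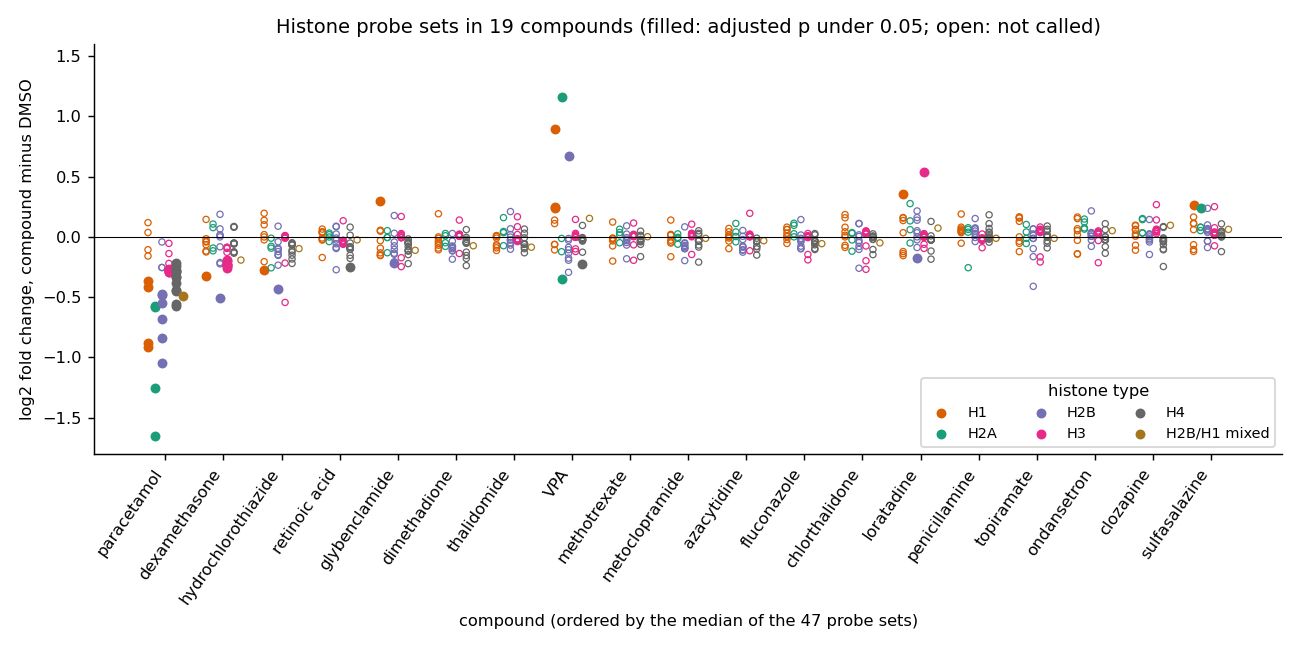
Log2 difference from DMSO (vertical axis) of all 47 histone probe sets for each of the 19 compounds, coloured by histone type. Filled points have an adjusted p under 0.05 and open points do not. The paracetamol points reach -1.65 with 37 filled below 0, and the VPA points reach 1.16.

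The promoters of 5 members that recur in the results are printed here to show what lies in front of them: H2ac1 fell with paracetamol and rose with VPA, H2ac4, H2bc3 and H1f5 were among the largest falls with paracetamol, and H1f10 rose with VPA and was not called with paracetamol. Each run is the 250 bases before the annotated gene start, 5′ to 3′ in the direction of the gene, from RefSeq on GRCm38.p6. H2ac1 is chr13:23934187-23934436 on the + strand, H2ac4 is chr13:23750838-23751087 on the + strand, H2bc3 is chr13:23746484-23746733 on the + strand, H1f5 is chr13:21780626-21780875 on the - strand and H1f10 is chr6:87981483-87981732 on the - strand. Capitals mark matches, on either strand, to 3 motifs: TATAAA, the TATA box; CCAAT, known to be bound by NF-Y; and ATTTGCAT, the octamer known from H2B promoters and bound by Pou2f1.
H2ac1: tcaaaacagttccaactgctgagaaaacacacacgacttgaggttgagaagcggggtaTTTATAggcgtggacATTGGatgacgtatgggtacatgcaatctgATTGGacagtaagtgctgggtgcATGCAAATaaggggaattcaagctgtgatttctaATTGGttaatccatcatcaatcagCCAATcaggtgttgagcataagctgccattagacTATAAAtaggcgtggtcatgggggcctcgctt
H2ac4: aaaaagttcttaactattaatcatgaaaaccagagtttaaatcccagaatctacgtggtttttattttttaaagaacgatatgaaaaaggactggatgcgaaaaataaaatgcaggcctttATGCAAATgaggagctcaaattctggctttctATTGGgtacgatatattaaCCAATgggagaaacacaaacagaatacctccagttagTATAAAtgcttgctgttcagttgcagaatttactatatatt
H2bc3: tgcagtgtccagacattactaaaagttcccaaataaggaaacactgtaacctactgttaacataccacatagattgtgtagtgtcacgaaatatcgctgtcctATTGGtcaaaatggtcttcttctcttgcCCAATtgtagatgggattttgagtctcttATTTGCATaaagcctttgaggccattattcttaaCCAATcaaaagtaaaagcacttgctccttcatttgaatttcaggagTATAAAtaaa
H1f5: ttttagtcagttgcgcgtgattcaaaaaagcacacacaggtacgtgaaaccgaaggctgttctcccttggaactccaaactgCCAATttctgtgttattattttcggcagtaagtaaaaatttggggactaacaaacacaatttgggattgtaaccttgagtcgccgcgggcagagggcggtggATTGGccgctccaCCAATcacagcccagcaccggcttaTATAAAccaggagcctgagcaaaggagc
H1f10: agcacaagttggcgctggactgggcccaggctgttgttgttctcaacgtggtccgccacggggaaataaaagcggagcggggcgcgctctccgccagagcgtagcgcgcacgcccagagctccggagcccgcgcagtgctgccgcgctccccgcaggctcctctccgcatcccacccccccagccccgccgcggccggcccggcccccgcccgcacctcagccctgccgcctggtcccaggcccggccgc

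The H2ac1 run held 2 matches to TATAAA, 4 to CCAAT and 1 to ATTTGCAT. H2ac1 and H2bc1, the mouse genes of the testis variants of H2A and H2B, lie head to head on opposite strands with 280 bases between their starts, so that most of the run printed for H2ac1 also lies in front of H2bc1. H2ac4 held 1, 2 and 1 matches to the 3 motifs and H2bc3 held 1, 3 and 1. H1f5 had 1 TATAAA and 3 CCAAT matches and no octamer, and none of the 3 motifs was in the H1f10 run. Windows of 300 bases, 250 before and 50 after the start, were listed for 26 of the 30 single-symbol members. ATTTGCAT on either strand was in 3 of 4 H2A and 5 of 7 H2B windows, in 0 of 8 H1, 0 of 2 H3 and 0 of 5 H4 windows, and in 1.74% of 32851 windows of all genes. The H2ac1 and H2bc1 windows share 220 bases, and the H2ac8 and H2bc8 windows also overlap. The H2A and H2B counts are thus not counts of separate sequences. CCAAT was in 21 of the 26 histone windows (80.8%) and 37.4% of all windows, and TATAAA was in 15 of 26 (57.7%) and 13.6%. These matches describe the letters in the windows and not sites in use.

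Among the H2A genes, all 4 probe sets fell with paracetamol. H2ac1 had signals of 10.87, 10.85 and 10.74 on the paracetamol arrays, against 12.44, 12.45 and 12.51 on the DMSO arrays. The groups lay far apart, and the log2 difference was -1.65 ± 0.0542 (adjusted p = 3.97e-26), which puts the paracetamol level at 31.9% of that in DMSO. It had the lowest log2 difference of all 35556 probe sets in this comparison. H2ac4, a replication-dependent H2A gene, had 8.78, 8.62 and 8.86 with paracetamol, against 10.06, 9.94 and 10.02 in DMSO (difference -1.25 ± 0.120, adjusted p = 3.44e-10), with rank 3 among the falls. H2ac15 and H2ac8 both fell by 0.58 on the log2 scale, H2ac15 on a mean of 11.77 with paracetamol and 12.35 in DMSO, and H2ac8 on 5.65 with paracetamol and 6.23 in DMSO.

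Of the 9 H2B probe sets, 6 fell. H2bc3, a replication-dependent H2B gene, had 10.25, 10.12 and 10.33 with paracetamol, against 11.29, 11.24 and 11.31 in DMSO, a log2 difference of -1.05 ± 0.0929 (adjusted p = 5.37e-11). H2bc1, the testis variant that neighbours H2ac1, had 8.84, 8.84 and 8.68 with paracetamol, against 9.63, 9.64 and 9.59 in DMSO (difference -0.83 ± 0.0699, adjusted p = 1.37e-11). In both genes every paracetamol array lay below every DMSO array. H2bc14 (-0.68), H2bc8 (-0.55), H2bc18 (-0.48) and H2bc9 (-0.48) also fell. H2bc22 was lower on all 3 paracetamol arrays without being called (-0.25 ± 0.0818, adjusted p = 0.0585). H2bc4 at -0.25 ± 0.108 and H2bc21 at -0.04 ± 0.0745 overlapped their DMSO arrays. The mixed probe set 10408212, annotated with H2bc6 and H1f4, had 8.0, 7.92 and 8.0 with paracetamol, against 8.47, 8.43 and 8.50 in DMSO, and fell by 0.49 on the log2 scale.

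Among the linker histones the calls differed by gene, and the difference between genes was not tested. H1f1, H1f2, H1f3 and H1f5, the replication-dependent somatic H1 genes with a probe set of their own, all fell with paracetamol. H1f5 had 10.93, 10.77 and 10.78 with paracetamol, against 11.78, 11.71 and 11.72 in DMSO (difference -0.91 ± 0.0586, adjusted p = 4.98e-15). H1f1 had 10.73, 10.56 and 10.55 with paracetamol, against 11.43, 11.60 and 11.45 in DMSO (difference -0.88 ± 0.0653, adjusted p = 4.67e-13). Falls were smaller for H1f3 (-0.42 ± 0.0897) and H1f2 (-0.36 ± 0.0767), with adjusted p of 0.00172 and 0.00137. None of the other 4 was called. In H1f6 and H1f10 every paracetamol array still lay below every DMSO array, as in 11.0% of all probe sets. H1f6, the testis linker histone H1t, stood at -0.16 ± 0.0719. H1f10, a replication-independent linker histone, had 10.55, 10.57 and 10.49 with paracetamol, against 10.61, 10.65 and 10.67 in DMSO (difference -0.11 ± 0.0779, adjusted p = 0.622). H1f7, known from spermatids, stood at 0.04 ± 0.0863 and H1f8, the oocyte linker histone, at 0.12 ± 0.0936.

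All 12 H4 probe sets fell with paracetamol, 6 of them with 1 symbol. H4c3 and H4c6 had the lowest differences among these at -0.57 and -0.56, followed by H4c8 (-0.45), H4c14 (-0.44), H4c9 (-0.29) and H4c4 (-0.22). The shared H4 probe set 10404067 had 13.56, 13.57 and 13.57 with paracetamol, against 13.83, 13.86 and 13.85 in DMSO (difference -0.28 ± 0.0365, adjusted p = 5.41e-07). All 10 shared H3 probe sets fell, between -0.29 and -0.27. Probe set 10403941, for example, had 13.72, 13.77 and 13.74 with paracetamol, against 14.04, 13.98 and 14.02 in DMSO (difference -0.27 ± 0.0502, adjusted p = 0.00027). Of the 3 H3 probe sets with 1 symbol, 0 were called by limma and 0 had an unadjusted p under 0.05: H3c7 stood at -0.22 ± 0.122, H3c4 at -0.14 ± 0.0792 and H3c15 at -0.05 ± 0.159.

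**Figure D2:**
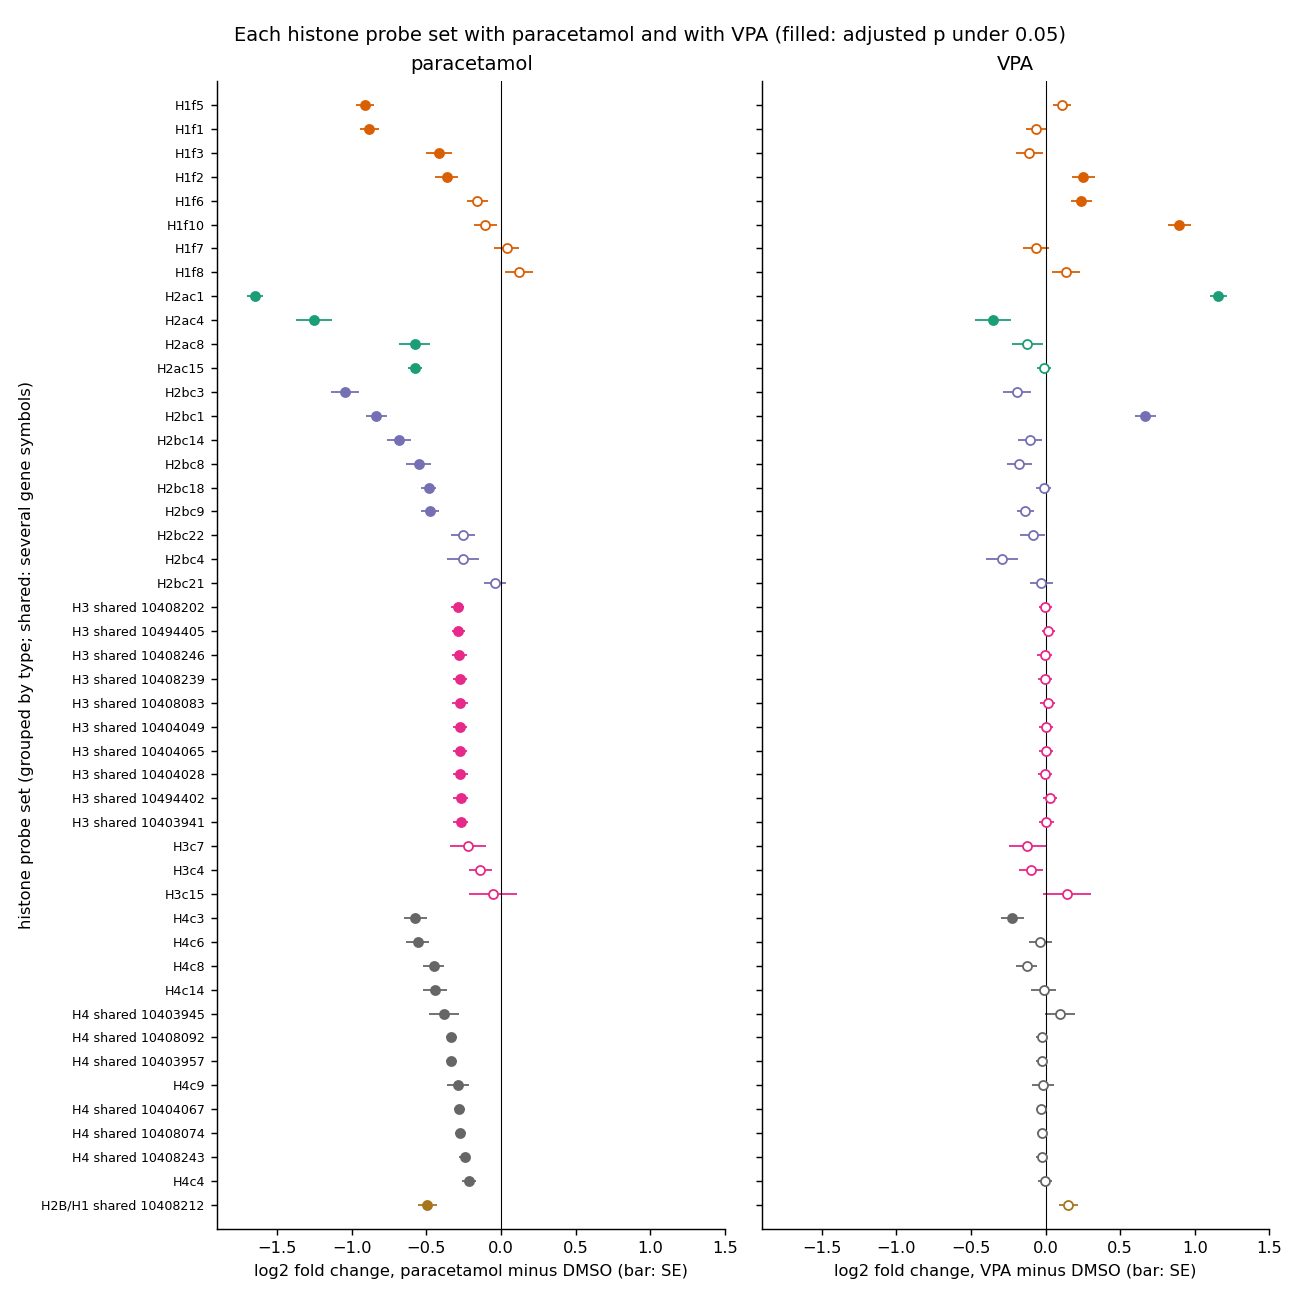
Log2 difference from DMSO (horizontal axis, bars are standard errors) of each histone probe set with paracetamol (left) and with VPA (right), grouped by histone type down the page. Filled points are called. The H2A points span -1.65 to -0.58 with paracetamol, and H2ac1, H1f10 and H2bc1 stand alone at the right of the VPA panel at 1.16, 0.90 and 0.67.

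The shared H3 and H4 probe sets are not independent counts. Signals of the 10 shared H3 probe sets correlated with each other between 0.817 and 0.997 over the 60 arrays, those of the 5 H4 probe sets with 11 symbols between 0.967 and 1, and 2 of these H4 probe sets, 10403957 and 10408092, were identical on every array. Among the 30 single-symbol members 20 fell, with a median log2 difference of -0.45. All 3 paracetamol arrays lay below all 3 DMSO arrays for 41 of the 47 members and 24 of the 30 single-symbol members, against 11.0% of all probe sets. A further 9 probe sets annotated with H2A or H2B genes together with a symbol outside the rule are no members. All 9 fell with paracetamol too, by -0.41 to -0.32 on the log2 scale.

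The members with the highest signals had differences of similar size. The 15 shared H3 and H4 probe sets with 11 or 12 symbols and H4c4 were above the 99th percentile of all probe sets by mean signal, at 13.68 to 14.03 on the DMSO arrays, and the highest value in the whole table was 14.55. These 16 differed by -0.33 to -0.22 with paracetamol, with a median of -0.27. The other 31 had a median of -0.45 and ran from -1.65 to 0.12. The part that the upper end of the scale plays in this was not tested.

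**Figure D3:**
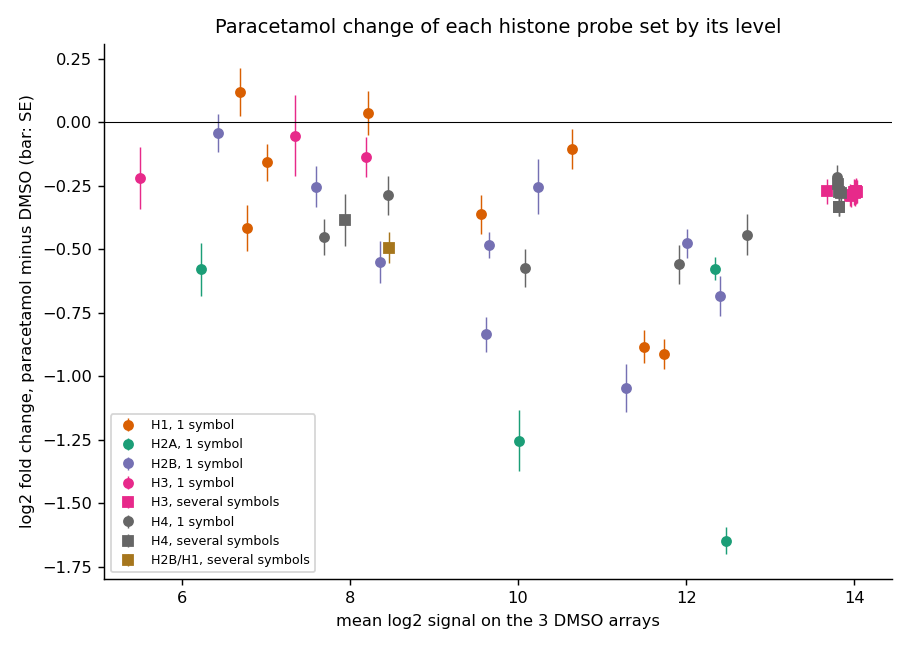
Mean DMSO log2 signal of each histone probe set (horizontal axis) and its log2 difference with paracetamol (vertical axis, bars are standard errors). Squares carry several gene symbols. The probe sets near a signal of 14 form a tight group between -0.33 and -0.22, and the lowest point is H2ac1 at a DMSO signal of 12.47.

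Histone probe sets were also lower when paracetamol was set against the mean of the other 18 compounds in place of DMSO: 39 of the 47 probe sets were lower and 0 higher, against 10.0% of all probe sets called. In that comparison H1f10 was called as well, at -0.27 ± 0.0566 (adjusted p = 0.000613). Paracetamol had the lowest mean of all 20 groups for 38 of the 47 probe sets, the shared H3 and H4 ones among them. The matching share over all probe sets is not given here. Leaving out 1 of the 6 arrays at a time kept between 35 and 37 calls, where 3.33% to 4.47% of all probe sets were called. A model of the 6 arrays alone called 17, all of them lower, where it called 0.903% of all probe sets.

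With VPA the histone probe sets were not called more often than all probe sets (18.3%), and the changes differed from those with paracetamol. H2ac1 had 13.61, 13.61 and 13.65 on the VPA arrays, against 12.44, 12.45 and 12.51 on the DMSO arrays (difference 1.16 ± 0.0542, adjusted p = 1.45e-20, a 2.23-fold level). H2bc1 had 10.16, 10.24 and 10.47 with VPA, against 9.63, 9.64 and 9.59 in DMSO (difference 0.67 ± 0.0699, adjusted p = 3.23e-10). H1f10 had 11.55, 11.57 and 11.50 with VPA, against 10.61, 10.65 and 10.67 in DMSO (difference 0.90 ± 0.0779, adjusted p = 2.49e-12). In all 3 genes every VPA array lay above every array of the other 19 groups. In the other 17 compounds the H2ac1 group means ran from 12.34 with glybenclamide to 12.70 with sulfasalazine, those of H2bc1 from 9.41 with dexamethasone to 9.70 with penicillamine, and those of H1f10 from 10.53 with dexamethasone to 11 with loratadine.

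**Figure D4:**
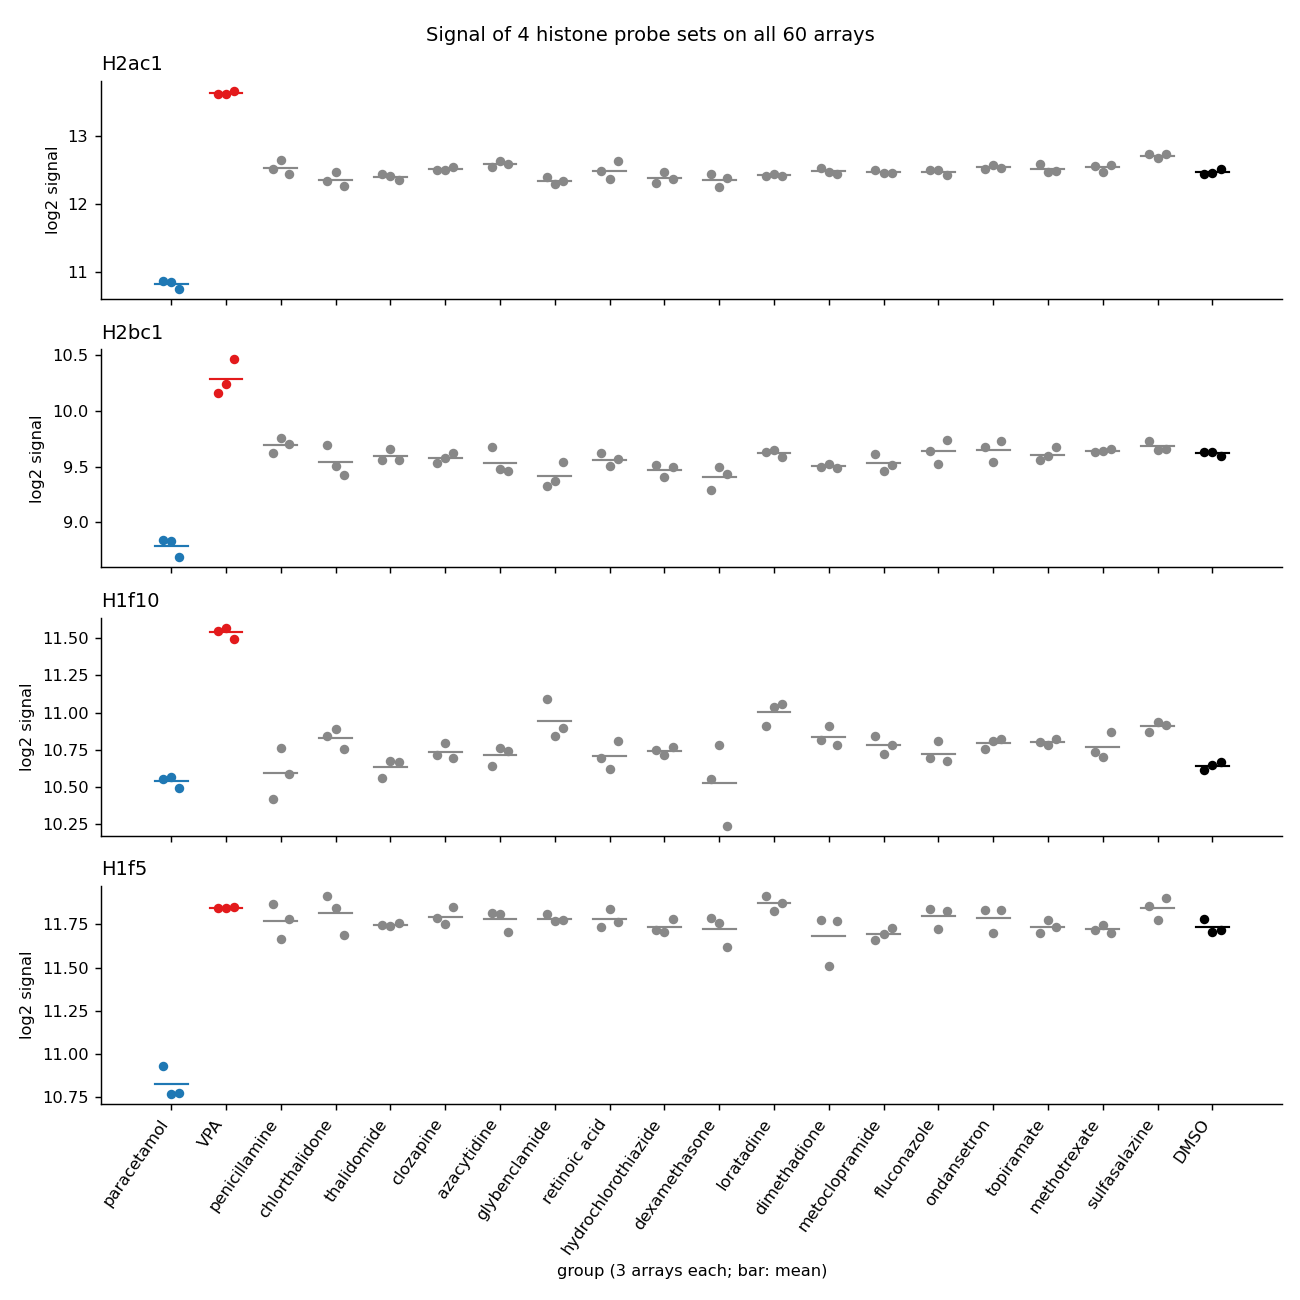
Log2 signal (vertical axes) of H2ac1, H2bc1, H1f10 and H1f5 on each of the 60 arrays by group, with paracetamol and VPA at the left and DMSO at the right. H2ac1 and H2bc1 are lowest with paracetamol and highest with VPA, H1f10 is highest with VPA at a mean of 11.54, and H1f5 is lowest with paracetamol at a mean of 10.82.

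The remaining VPA calls were smaller. H1f2 had 9.86, 9.76 and 9.82 with VPA, against 9.51, 9.62 and 9.55 in DMSO (difference 0.25 ± 0.0767, adjusted p = 0.0148). H1f6 had 7.22, 7.32 and 7.22 with VPA, against 6.94, 7.17 and 6.93 in DMSO (difference 0.24 ± 0.0719, adjusted p = 0.0127). H2ac4 fell, at 9.69, 9.66 and 9.63 with VPA and 10.06, 9.94 and 10.02 in DMSO, and H4c3 fell, at 9.93, 9.88 and 9.75 with VPA and 10.08, 10.05 and 10.10 in DMSO. With 1 array left out at a time, each of these falls lost its call in 5 of the 6 refits. The adjusted p went up to 0.111 for H2ac4 and 0.206 for H4c3. Against the mean of the other 18 compounds H4c3 stood at -0.05 (adjusted p = 0.569). H1f6 lost its call in 3 of the 6 refits with 1 array left out, and H1f2 in 2. The number of VPA calls was 3 without DMSO replicate 1, namely H2ac1, H1f10 and H2bc1, where 15.3% of all probe sets were called. It was 4 without DMSO replicate 3 (15.4% of all) or without VPA replicate 2 (15.2%). The other H1 genes with VPA were H1f5 at 0.11 ± 0.0586, H1f1 at -0.06 ± 0.0653, H1f3 at -0.11 ± 0.0897, H1f7 at -0.06 ± 0.0863 and H1f8 at 0.14 ± 0.0936, none called. Of the 17 probe sets with several symbols, 0 were called with VPA by limma and 1 had an unadjusted p under 0.05. Their differences ran from -0.03 to 0.15.

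H2ac1, H2bc1 and H1f10 had the largest rises with VPA in these same data. The same 3 VPA arrays enter each contrast below, so the contrasts are not independent support. The difference between VPA and each of the 7 other compounds with histone calls was tested for these 3 genes, and every difference was called. The smallest were 0.92 ± 0.0542 for H2ac1 against sulfasalazine, 0.61 ± 0.0699 for H2bc1 against sulfasalazine and 0.54 ± 0.0779 for H1f10 against loratadine. Against paracetamol, VPA was higher for 39 of the 47 probe sets, where 13.3% of all probe sets were called. H2ac1 differed by 2.81 ± 0.0542, the highest value of all 35556 probe sets in that contrast. Against the mean of the other 18 compounds 7 members were higher with VPA and 2 lower, where 25.8% of all probe sets were called. That mean includes paracetamol, with which most of the 47 fell. Among those higher, H1f5 (0.13) and mixed probe set 10408212 (0.21) were not called against DMSO. Nor was H2bc22 (-0.18), among those lower. Over the 20 group means H2ac1 and H2bc1 correlated at 0.966, and at 0.673 over the 18 groups other than VPA and paracetamol. H2ac1 and H1f10 correlated at 0.672 over 20 and 0.0829 over 18. These correlations are descriptions over group means that share 1 normalisation, and have no test.

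With dexamethasone the calls were 7 shared H3 probe sets, H2bc4 and H1f1. Shared H3 probe set 10403941 had 13.61, 13.99 and 13.66 with dexamethasone, against 14.04, 13.98 and 14.02 in DMSO (difference -0.26 ± 0.0502, adjusted p = 0.00263). Arrays 1 and 3 were low and array 2 lay inside the DMSO range, so the groups overlapped, and they overlapped in the same way for all 7. H1f1 had 11.15, 11.27 and 11.09 with dexamethasone, against 11.43, 11.60 and 11.45 in DMSO (difference -0.32 ± 0.0653, adjusted p = 0.00444), without overlap. H2bc4 had 9.84, 10.08 and 9.27 with dexamethasone, against 10.30, 10.08 and 10.32 in DMSO (difference -0.51 ± 0.108, adjusted p = 0.00623). Of the 6 shared H4 probe sets 0 were called by limma, and 0 had an unadjusted p under 0.05. The other H1 differences with dexamethasone included H1f10 at -0.12 ± 0.0779, where array 3 was at 10.24 and array 2 at 10.79. Without array 3 the H1f10 difference was 0.03 (adjusted p = 0.897).

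Dexamethasone array 3 also had a narrow spread of signals over all probe sets, with an interquartile range of 3.0, and its title carries a letter b that few arrays have. Dexamethasone arrays 1 and 2 had interquartile ranges of 3.12 and 3.09, and the DMSO arrays 3.20, 3.11 and 3.23. Hydrochlorothiazide arrays 1 and 2, with ranges of 2.97 and 2.99, had mean signals of 13.93 and 13.97 for the shared H3 probe sets. The number of histone calls was 4 without this array, where 1.96% of all probe sets were called. It was 16 without dexamethasone array 2, 15 of them lower and 1 higher, where 11.6% of all were called, and 6 without DMSO array 3, where 0.602% were. It was 6 once the interquartile range was added to the model (0.655% of all). The count for the histones and the share for all probe sets were thus both highest without dexamethasone array 2. H2bc4 lost its call without dexamethasone array 3 (adjusted p = 0.0976) or without DMSO array 3 (0.0571), and H1f1 kept its call without any 1 of the 6 arrays. Fitted to these 6 arrays only, limma called 0 histone probe sets and 0 of all probe sets. Against the mean of the other 18 compounds 17 histone probe sets were lower and 3 higher, namely H2bc9, H4c6 and H4c14 (named after their values were seen), where 27.4% of all probe sets were called. The summed signal of the fibroblast markers was 13.07 to 13.47 with dexamethasone, against 13.40 to 13.47 in DMSO, and 1 of the 10 fell. Of the 8 embryonic stem cell markers 2 fell, and their summed signal was 15.33 to 15.44 with dexamethasone, against 15.43 to 15.45 in DMSO. Of the 9 probe sets for core histone variants outside the rule 2 fell, both of H2az1, where 3.01% of all probe sets were called lower with dexamethasone. The part of these array differences in the histone calls was not tested.

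**Figure D5:**
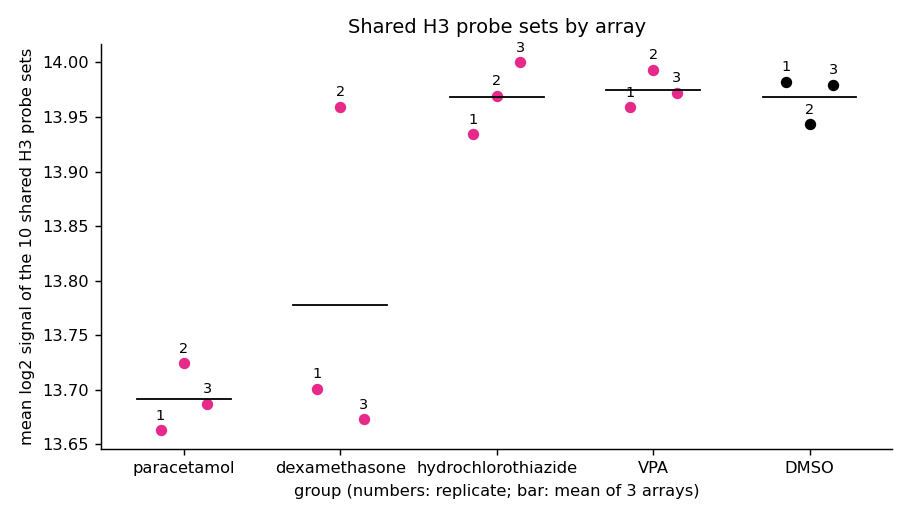
Mean log2 signal of the 10 shared H3 probe sets (vertical axis) on each array of 5 groups, numbered by replicate in deposited order. The 3 paracetamol arrays lie between 13.66 and 13.72, dexamethasone arrays 1 and 3 at 13.70 and 13.67, dexamethasone array 2 at 13.96, and the DMSO arrays between 13.94 and 13.98.

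A few single genes were called with 5 further compounds. H1f10 had 10.91, 11.04 and 11.06 with loratadine, an antihistamine, against 10.61, 10.65 and 10.67 in DMSO (difference 0.36 ± 0.0779, adjusted p = 0.000917), and kept its call without any 1 of the 6 arrays. It was also called with glybenclamide, a sulfonylurea, at 11.09, 10.84 and 10.90 (difference 0.30 ± 0.0779), and with sulfasalazine, an anti-inflammatory drug, at 10.87, 10.94 and 10.92 (difference 0.27 ± 0.0779). The glybenclamide call was lost without glybenclamide replicate 1 (adjusted p = 0.14) or without DMSO replicate 1 (0.0524). The sulfasalazine call was lost in 5 of the 6 refits with 1 array left out, with adjusted p up to 0.152. H2ac1 had 12.72, 12.67 and 12.72 with sulfasalazine, against 12.44, 12.45 and 12.51 in DMSO (difference 0.24 ± 0.0542, adjusted p = 0.00822), and lost its call without DMSO replicate 2 (0.0579).

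H3c15 had 7.93, 7.83 and 7.88 with loratadine, against 7.53, 7.01 and 7.48 in DMSO (difference 0.54 ± 0.159, adjusted p = 0.0173), and was not called without DMSO replicate 2 (0.21) or loratadine replicate 1 (0.0625). H2bc9 fell by 0.21 on the log2 scale with glybenclamide and by 0.18 with loratadine. The glybenclamide call was lost in 3 of the 6 refits with 1 array left out (adjusted p up to 0.0619). For loratadine it was lost in 5 of the 6 (up to 0.171). The loratadine call was also lost with the letter b as a covariate (0.0556) and against the mean of the other 18 compounds, where H2bc9 stood at -0.10 (0.115). H4c3 fell with retinoic acid, at 9.85, 9.69 and 9.94, against 10.08, 10.05 and 10.10 in DMSO. This call was lost in 5 of the 6 refits with 1 array left out (adjusted p up to 0.29). It was also lost with the letter b as a covariate (0.064) and against the mean of the other 18 compounds. Against that mean the difference was -0.08 in place of -0.25 (0.36). With hydrochlorothiazide, a diuretic, H2bc4 (-0.43 ± 0.108) and H1f1 (-0.27 ± 0.0653) fell. H2bc4 lost its call in 4 of the 6 refits with 1 array left out, and H1f1 in 5 of the 6. Hydrochlorothiazide arrays 1 and 2 had the lowest interquartile ranges of all 60 arrays at 2.97 and 2.99. Once that range was added to the model 0 histone probe sets were called, and 1 of all probe sets was (0.00281%). In all, 2 members were called with glybenclamide, where 6.17% of all probe sets were called, 1 with retinoic acid (6.69% of all), 2 with hydrochlorothiazide (1.03%), 3 with loratadine (13.2%) and 2 with sulfasalazine (4.76%). Set against the mean of the other 18 compounds, 2 members were lower with glybenclamide (6.05% of all probe sets called), 0 were called with retinoic acid (12.1%), 5 were lower with hydrochlorothiazide (28.1%), 10 were higher with loratadine (16.5%) and 4 were higher with sulfasalazine (7.84%). Paracetamol is part of that mean in each case.

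In the other 11 compounds limma called 0 histone probe sets. The share of all probe sets called was 0% with penicillamine, thalidomide, fluconazole, topiramate and methotrexate, 1.51% with chlorthalidone, 0.903% with clozapine, 0.00562% with azacytidine, 0.0787% with dimethadione, 0.127% with metoclopramide and 0.160% with ondansetron. An unadjusted p under 0.05 was reached by 4 histone probe sets each with chlorthalidone, dimethadione and topiramate, 3 with penicillamine, 2 each with clozapine, azacytidine, metoclopramide and methotrexate, 1 each with thalidomide and ondansetron, and 0 with fluconazole. Over all histone probe sets in these 11 compounds, whatever their p, differences from DMSO lay between -0.41, for H2bc4 with topiramate, and 0.27, for H3c15 with clozapine. Methotrexate and azacytidine, which are known to act on nucleotide supply and on DNA methylation, were in this group, with median histone differences of -0.01 each. Against the mean of the other 18 compounds 10 histone probe sets were higher and 1 lower with penicillamine, where 10.3% of all probe sets were called, and 3 were higher and 1 lower with topiramate (9.79% of all). The other 9 of these compounds had 0 histone calls against that mean. The comparisons with DMSO all share the 3 DMSO arrays.

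With paracetamol, where 5.43% of all probe sets were called and 2.79% called lower, genes that serve histone supply were called in both directions. Of 25 probe sets for 21 genes of histone transcription and mRNA 3′ processing, 1 fell, Nfya, a subunit of NF-Y, at 10.56 with paracetamol and 10.79 in DMSO (-0.23 ± 0.0497), and 0 rose. Of 26 probe sets for 25 S phase and replication genes 2 rose, Rrm2, a ribonucleotide reductase subunit (0.27 ± 0.0521), and Cdc45, a replication helicase component (0.20 ± 0.0637), and 1 fell, Dbf4 (-0.26 ± 0.0682). Among 17 probe sets for histone chaperones, Chaf1b (0.24 ± 0.0447) and Asf1b (0.23 ± 0.05) rose and Daxx (-0.28) and Asf1a (-0.26) fell. Of 9 probe sets for core histone variants with symbols outside the rule 4 fell. They were Cenpa, the centromeric H3 (-0.37 ± 0.0518), H2ax (-0.27 ± 0.0709) and both probe sets of H2az1 (-0.15 and -0.14). These variants were not sorted by when in the cell cycle they are made.

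Other lists moved with paracetamol beside the histones, where 2.79% of all probe sets were called lower. Of 12 probe sets for G2 and mitosis genes 8 fell, led by the kinases Aurka (-0.52 ± 0.0509) and Plk1 (-0.48 ± 0.0544), and the list's summed signal was 15.05 to 15.08 with paracetamol, against 15.27 to 15.32 in DMSO. Of 8 embryonic stem cell markers 5 fell, among them Zfp42 (-0.38 ± 0.0614) and Esrrb (-0.28 ± 0.0730). Their summed signal was 15.25 to 15.29 with paracetamol, against 15.43 to 15.45 in DMSO. Of 10 fibroblast markers limma called 0, with 1 at an unadjusted p under 0.05, and their summed signal was 13.34 to 13.36 with paracetamol, against 13.40 to 13.47 in DMSO. Of 8 male germ cell markers it also called 0, with 1 at an unadjusted p under 0.05. The part of any of these in the histone falls was not tested.

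With VPA 18.3% of all probe sets were called, beside the list counts that follow. Those called higher were 9.82% of all probe sets, and the rest of those called were lower. Of the 25 processing probe sets 8 fell, led by Nfyc (-0.48 ± 0.0473) and Cstf1, a cleavage factor subunit (-0.42 ± 0.0533), and 0 rose. The chaperones Chaf1b (0.52 ± 0.0447) and Asf1b (0.39 ± 0.05) rose, and Atrx (-0.43) and Daxx (-0.32) fell. In the S phase list 2 rose, Prim1 (0.35) and Cdk2 (0.16), and 6 fell, led by Cdt1 and Dbf4 (-0.32 each). Among the variants H2az2 rose (0.25 ± 0.0743) and both H2az1 probe sets fell (-0.13 and -0.11). In G2 and mitosis 3 of 12 fell, led by Cdc20 (-0.34). Of the embryonic stem cell markers 4 of 8 fell, led by Nanog (-0.68 ± 0.0515) and Zfp42 (-0.52 ± 0.0614). Of the 8 male germ cell markers, listed because H2ac1, H2bc1 and H1f6 are known from testis, limma called 0 with VPA and 2 had an unadjusted p under 0.05. Their summed signal was 10.82 to 10.90 with VPA, against 10.76 to 10.90 in DMSO. Of 10 fibroblast markers Thy1 rose (0.48) and Col1a2 fell (-0.16).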

How the data were processed

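The deposited table holds log2 signals that the authors computed with RMA, per the submitters' processing notes. The RMA version, its options and the genome build were not given in the sources used here. RNA was labelled as single-stranded cDNA with a whole-transcript kit, per the labels' protocols. Probe sets were named from the platform annotation: 12146 of 35556 had no entry and 1621 had several symbols. Nothing was normalised again for the main results.

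One limma model (version 3.58.1 in R 4.3.3) with a mean per group was fitted to all 60 arrays and 35556 probe sets, with 40 residual degrees of freedom; each compound was compared with DMSO and p-values were adjusted over all probe sets by the Benjamini-Hochberg method. The fitting code was tested on simulated data. Array numbers follow deposited order only and pair nothing. Promoter windows and their coordinates came from RefSeq (GRCm38.p6). Alternatives are given in the closing section. The members and gene lists were chosen with earlier results of these data known. Genes were named by rule: the 6 largest called falls and rises for compounds with at least 10 calls, the 3 largest otherwise, every H1 probe set, the members with the highest and lowest signal of each type, H2ac1, H2bc1 and H1f6, and for other lists the 2 largest called changes in each direction. Further members were named, after their values were seen, so that each type is accounted for. The probe set is the unit throughout, and the number of arrays limits the precision.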

Additional observations from a re-analysis of the deposited data

How the results depend on the processing

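No paired analysis was possible because the labels give no replicate numbers. No called difference changed sign under any alternative run. Signs turned in 12 refits of 7 differences, which were called neither as reported nor in those refits. With dexamethasone these were H1f3 (0.0049 with the interquartile range as covariate, and -0.102 to 0.0191 with 1 array left out at a time), H1f5 (0.0167 after quantile normalisation, 0.0422 with the interquartile range, and -0.0486 to 0.0352), H1f2 (-0.292 to 0.0109), H1f6 (-0.108 to 0.0137), H1f7 (-0.146 to 0.0366) and H1f10 (-0.247 to 0.0264), and H1f1 with VPA stood at 0.0298 against the mean of the other 18 compounds. The median histone difference with VPA was 0.01 after quantile normalisation and -0.01 without it. The alternatives were quantile normalisation, annotated probe sets only, dim probe sets left out (which drops 8 members), limma with trend and robust options, the interquartile range or the letter b as covariate, a model of the 6 arrays alone, another reference and leaving out each array. For every compound but paracetamol itself, the mean of the other 18 compounds includes paracetamol. The count of called histone probe sets moved by over 1.5 times as follows. Against the mean of the other 18 compounds it was 11 with penicillamine (10 higher, 1 lower; 10.3% of all probe sets called), 0 with retinoic acid (12.1%), 5 with hydrochlorothiazide (all lower; 28.1%), 20 with dexamethasone (17 lower, 3 higher; 27.4%), 10 with loratadine (all higher; 16.5%), 4 with topiramate (3 higher, 1 lower; 9.79%) and 4 with sulfasalazine (all higher; 7.84%). After quantile normalisation it was 5 with glybenclamide (6.83% of all), 0 with hydrochlorothiazide (0.993%), 5 with loratadine (14.4%) and 1 with sulfasalazine (3.69%). Without dim probe sets it was 5 of 39 members with glybenclamide (13.5% of all kept probe sets) and 2 of 39 with retinoic acid (13.6%). The count with retinoic acid was also 2 with trend and robust options (6.91% of all). With the interquartile range it was 2 with retinoic acid (6.71%), 0 with hydrochlorothiazide (0.00281%) and 0 with sulfasalazine (0.692%). With the letter b it was 0 with retinoic acid (6.6%). In models of 6 arrays it was 0 with glybenclamide (0.397% of all), retinoic acid (1.18%), hydrochlorothiazide (0%), dexamethasone (0%) and sulfasalazine (0.0619%). There it was 1 with loratadine (7.37%) and 17 with paracetamol (0.903%). These models have fewer arrays to estimate the spread. The causes of the moves listed here were not tested. Leaving out 1 array at a time, the count ran from 35 to 37 with paracetamol, 3 to 7 with VPA, 4 to 16 with dexamethasone, 0 to 3 with glybenclamide, 0 to 4 with retinoic acid, 0 to 4 with hydrochlorothiazide, 1 to 3 with loratadine and 0 to 2 with sulfasalazine, while the share of all probe sets called also moved (0.602% to 11.6% with dexamethasone, 0% to 9.2% with hydrochlorothiazide), and stayed at 0 in the 11 compounds without calls. Against the mean of the other 18 compounds it was 39 throughout with paracetamol and 6 to 8 with VPA, and VPA against paracetamol gave 38 to 39. With paracetamol, shared H4 probe set 10403945 and H4c9 were the only members to lose a call when 1 array was left out: both did so without DMSO replicate 3 (adjusted p = 0.105 and 0.109), 10403945 also without paracetamol replicate 2 (0.114) and H4c9 without DMSO replicate 1 (0.0582). The median histone difference with paracetamol was -0.26 after quantile normalisation. Signals close to the top of the scale and low signals limit what a difference of the shared H3 and H4 or of the dimmest probe sets can show.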
